A study of Mus musculus with 4 samples.

Results

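The zinc finger genes of mouse chromosome 4 were followed in CH12.F3, a lymphoma line of mouse B cells in which the switch from IgM to IgA is studied. The members are the transcript clusters, the probe groups of the array that are read as 1 value, whose platform gene symbol or symbols start with Zfp and lie on chromosome 4 in RefSeq's GRCm38.p6 annotation. There were 25 such clusters among 35556 on the array. Of these, 19 named 1 gene and 6 were shared by near copies, and together they named 24 Zfp genes. The list was proposed because Zfp979 showed a large fall in earlier work on these data, so every value of the comparison below is a description and no test on these clusters counts as support.

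Expression was measured on 4 Affymetrix whole-transcript arrays, 2 of Mbd4 KO cells and 2 of control cells. Both groups were the same line, kept in medium with 6% serum and stimulated over 24 hours by a mixture of IL-4 at 5 ng/ml, TGF-beta at 0.2 ng/ml and CD40 ligand at 25% of the volume, so no unstimulated cells were compared. Mbd4 encodes a repair enzyme with a methyl-CpG binding domain, which cuts out the thymine left where a methylated cytosine has deaminated. The labels give no clone for the knockout, no genotype for the control beyond its name, and nothing on whether the cultures behind the arrays were separate. The p-values below therefore reflect array-to-array spread alone, and that spread may be technical. All levels and differences below are log2 values, as deposited.

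Mbd4 itself had 6.47 and 6.49 in Mbd4 KO cells, against 8.74 and 8.77 in control cells, a difference of -2.28 ± 0.065 (SE), so the arrays ranked as labelled. The position of its probes relative to the deleted part was not known here. All 6 B cell markers measured were bright, with means of 10.4 to 12.6 in Mbd4 KO cells and 10.1 to 12.5 in control cells. The 10 markers of T cells, myeloid cells and fibroblasts had means of 5.22 to 7.55 in Mbd4 KO cells and 5.02 to 7.63 in control cells. In RNA from a whole culture, fewer cells that express a gene and less RNA per cell cannot be told apart.

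Zfp is a naming prefix for zinc finger proteins, which fold around zinc ions and mostly bind DNA. A large branch of them carries a KRAB domain, which recruits the corepressor TRIM28 and, through it, the histone methyltransferase SETDB1, HP1 proteins and DNA methylation. Many KRAB zinc finger proteins bind retrotransposons, and their genes multiply as tandem copies in clusters that differ between species and mouse strains. The far end of mouse chromosome 4 holds one of these clusters. Zfp979, which RefSeq also lists as Ssm1b, belongs to it, and Ssm1b is known as a strain-specific modifier that promotes DNA methylation of a transgene in early mouse embryos.

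In gene order, 14 of the 24 Zfp genes formed 1 run with at most 30 other annotated genes between neighbours. The annotation also lists Zfp993 and Zfp978 inside it, but no cluster names them, so they were not read and are not counted. The run spans 77 annotated genes from Zfp990 to Zfp933, many of them pseudogenes, and 15 of the 25 clusters read it. Zfp979 lies next to Zfp985, with no annotated gene between them. Of the 14 genes, 7 had a cluster of their own, namely Zfp980, Zfp600, Zfp991, Zfp982, Zfp985, Zfp979 and Zfp933. The other 7, Zfp990, Zfp987, Zfp992, Zfp981, Zfp988, Zfp534 and Zfp984, were read only by shared clusters, so the array gave no value for any of them alone.

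How alike the stretches before these genes are is shown by the 250 bases before the start sites of 4 of them. Transcript, protein and probe sequences were not compared. The 250 bases set Zfp979 beside Zfp600, the closest by promoter of the genes with a cluster of their own. They also set it beside its next-door neighbour, Zfp985. Also printed is Zfp980, which had the next largest fall among the own clusters of the run (-0.99). The sequences are RefSeq's, for assembly GRCm38.p6, read 5′ to 3′ on the strand of the gene, and capitals mark CpG sites, the letters that carry DNA methylation. They lie at chr4:147642509-147642758 on the minus strand for Zfp979 and, on the plus strand, at chr4:146156577-146156826 for Zfp600, chr4:145670447-145670696 for Zfp980 and chr4:147553027-147553276 for Zfp985.
Zfp979: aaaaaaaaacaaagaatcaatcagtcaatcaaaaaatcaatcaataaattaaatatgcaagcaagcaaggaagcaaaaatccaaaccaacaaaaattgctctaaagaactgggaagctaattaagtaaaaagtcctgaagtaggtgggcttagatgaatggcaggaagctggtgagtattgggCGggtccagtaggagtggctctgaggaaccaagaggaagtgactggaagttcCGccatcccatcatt
Zfp600: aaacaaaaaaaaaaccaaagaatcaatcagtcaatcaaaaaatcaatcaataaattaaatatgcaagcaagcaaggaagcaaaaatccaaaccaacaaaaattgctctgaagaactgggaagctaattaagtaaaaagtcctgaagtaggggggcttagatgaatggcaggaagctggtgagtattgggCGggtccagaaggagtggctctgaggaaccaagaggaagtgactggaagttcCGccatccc
Zfp980: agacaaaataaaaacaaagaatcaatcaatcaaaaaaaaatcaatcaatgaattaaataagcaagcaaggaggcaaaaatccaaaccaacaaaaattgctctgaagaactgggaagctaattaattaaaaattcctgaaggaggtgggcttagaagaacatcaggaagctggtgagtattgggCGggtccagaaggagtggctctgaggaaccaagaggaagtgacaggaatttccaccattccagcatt
Zfp985: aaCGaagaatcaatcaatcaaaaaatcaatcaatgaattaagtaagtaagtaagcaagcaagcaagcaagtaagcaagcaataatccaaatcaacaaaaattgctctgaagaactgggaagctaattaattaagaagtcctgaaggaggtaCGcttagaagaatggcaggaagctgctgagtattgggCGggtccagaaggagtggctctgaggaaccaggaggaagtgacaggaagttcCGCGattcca

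RefSeq promoter windows of 300 bases, which reach 50 bases past the start site, were found for 12 of 15 genes. These 15 are the 14 genes of the run that clusters name and Rex2, a related gene inside it. Zfp993 and Zfp978 were not compared. Entries for Zfp990, Zfp991 and Zfp992 were not used here. Where a gene had several start sites, the window most like that of Zfp979 was taken. This applied to Zfp600, whose other window matched at 51.1%, and to Zfp982, whose others matched at 50.5% and 52.1%. The window of Zfp979 matched those of Rex2 at 98.6% and Zfp600 at 98.3% of alignment columns, with inner gaps counted. Next came Zfp980 at 91.0%, Zfp534 at 89.4%, Zfp988 at 88.8%, Zfp982 at 88.4% and Zfp987 at 88.3%. Lower were Zfp985 at 85.5%, Zfp981 at 80.5% and Zfp984 at 76.7%. These alignments were between 265 (Zfp534) and 304 columns (Zfp985) long. Zfp933, the last gene of the run, matched at 52.0%, and its window is thus unlike the rest.

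The windows of Zfp979 and of its 10 related genes all hold one stretch of 15 bases, tgggaagctaattaa, which lies 91 to 149 bases before their start sites. Searched on both strands, it was found in 12 of 32851 promoter windows of the same length (0.0365%), all on chromosome 4, the 12th being that of Gm13212 in the same run. The stretch was picked as the longest one common to the windows of Zfp979 and its 10 related genes. Their hits were thus fixed by that choice, and only the hit in Gm13212 was not. The 300-base window of Zfp979 holds 5 CpG sites, that of Zfp600 5, that of Zfp980 3 and that of Zfp985 6, of which 2, 2, 1 and 5 lie in the 250 bases printed. All windows have a median of 7, and 47.9% have at most 6. The letters GGGCGG, a motif of Sp1-type factors, searched on both strands and holding a CpG themselves, are in the windows of Zfp979, Zfp600, Zfp980 and Zfp985, as in 35.7% of all windows. These matches describe sequence and do not show that a factor binds.

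The own cluster of Zfp979 read 3.51 and 3.62 in Mbd4 KO cells, against 7.93 and 7.76 in control cells. Both Mbd4 KO arrays lay far below both control arrays, and the spread within each group was small (SD 0.079 in Mbd4 KO cells and 0.122 in control cells). The difference was -4.28 ± 0.094 (SE, n = 2 each), with a 95% interval of -4.54 to -4.03, or 19.5-fold lower. In brightness the cluster stood at percentile 0.6 of the 23410 clusters with a gene symbol in Mbd4 KO cells and at percentile 56.7 in control cells. No raw intensity was used, so whether 3.51 and 3.62 were above background was not assessed, and the size of the fold is uncertain at that end.

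A second cluster that names Zfp979 is shared by 6 symbols, Rex2, Zfp981, Zfp980, Zfp600, Zfp987 and Zfp979. It read 6.19 and 6.17 in Mbd4 KO cells, against 7.77 and 7.56 in control cells. The groups again did not overlap, and the difference was -1.49 ± 0.094 (SE; 95% interval -1.74 to -1.24), 2.81-fold lower. Its probes are not assigned to single genes in the sources used here, so the share of Zfp979 in this value was not tested.

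Zfp980 lies nearer the start of the run and is named by 4 clusters. Its own cluster read 3.51 and 3.64 in Mbd4 KO cells, against 4.36 and 4.77 in control cells. All 4 values were dim, at percentile 0.7 in Mbd4 KO cells and 6.3 in control cells, but the groups did not overlap. The difference was -0.99 ± 0.16 (SE; 95% interval -1.42 to -0.56). Whether the Mbd4 KO values were above background was not assessed, so the size of this difference is uncertain too. Whether its probes also read Zfp979 was not tested.

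Zfp600, the closest by promoter of the genes with a cluster of their own, read 3.78 and 3.87 in Mbd4 KO cells, against 3.97 and 3.60 in control cells. The Mbd4 KO arrays lay between the control arrays. The difference was 0.04 (95% interval -0.35 to 0.43). It was dim in both groups, at percentile 1.5 in Mbd4 KO cells and 1.3 in control cells. A fall like that of Zfp979 could therefore not have been read from this cluster. Rex2, closer still by promoter, had no cluster of its own.

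Zfp985, the next-door neighbour, has 3 clusters of its own, with differences of -0.03, -0.03 and -0.19. The brightest of them read 7.06 and 6.995 in Mbd4 KO cells, against 7.01 and 7.12 in control cells. Its groups overlapped, with a 95% interval of -0.24 to 0.18. The dimmest read 5.45 and 5.24 in Mbd4 KO cells, against 5.48 and 5.59 in control cells, without overlap and with a 95% interval of -0.46 to 0.09. The third read 6.03 and 5.83 in Mbd4 KO cells, against 5.93 and 5.99 in control cells, with overlapping groups. The lowest values of the 4 arrays were 2.69 to 2.82. A difference of -4.28, that of Zfp979, could thus not have been read from the dimmest or the third cluster. In the brightest it would have ended near those lowest values.

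The remaining own clusters of the run all had overlapping groups. Zfp991 read 5.93 and 6.22 in Mbd4 KO cells, against 5.98 and 6.53 in control cells, and had the widest interval of the 25 members (-0.77 to 0.41). Zfp982 read 4.91 and 4.73 in Mbd4 KO cells, against 4.82 and 4.81 in control cells, a difference of 0.01. It was dim in both groups, at percentile 8.9 in Mbd4 KO cells and 9.1 in control cells. A fall as large as that of Zfp979 could therefore not have been read from the own clusters of Zfp982 or Zfp991. Zfp933, the gene with the unlike promoter, read 8.15 and 8.33 in Mbd4 KO cells, against 8.17 and 8.24 in control cells, a difference of 0.03 (95% interval -0.21 to 0.28).

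**Figure D1:**
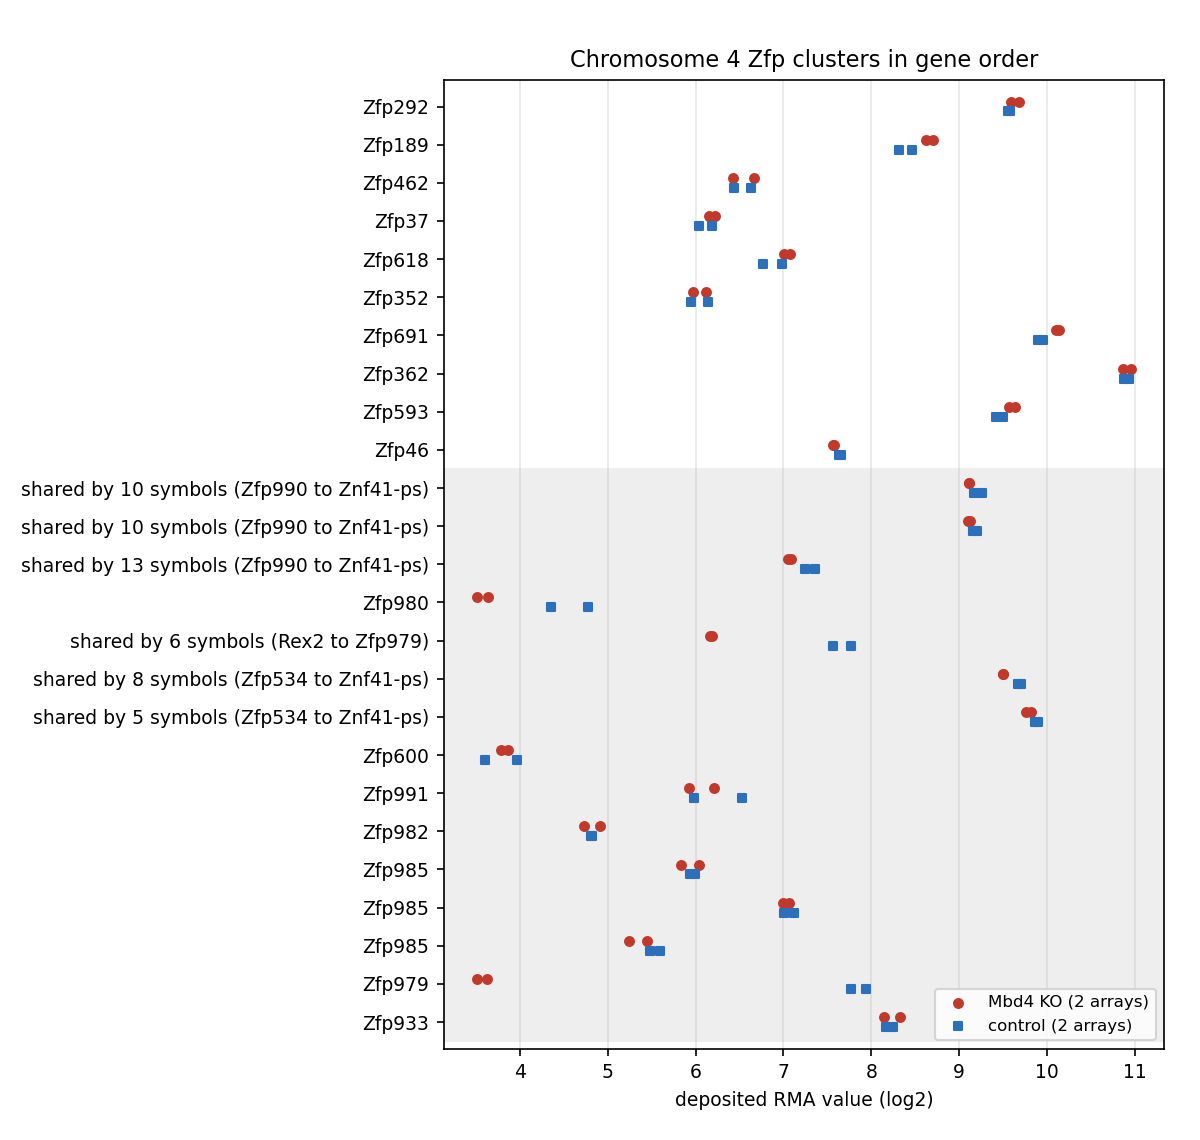
Deposited log2 values of the 25 chromosome 4 Zfp clusters on each array, in gene order from top to bottom, with Mbd4 KO arrays as circles and control arrays as squares; the grey band marks the 15 clusters of the distal run. The Mbd4 KO values of Zfp979 (3.51 and 3.62) lie far left of the control values (7.93 and 7.76), while those of its neighbour Zfp985 lie close to them.

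The other 5 shared clusters of the run differed by -0.24 to -0.07. The 13-symbol cluster, which names Zfp980 and Rex2 but not Zfp979, read 7.08 and 7.05 in Mbd4 KO cells, against 7.24 and 7.36 in control cells (-0.24, 95% interval -0.44 to -0.03). An 8-symbol cluster, which also names Zfp980, read 9.49 and 9.50 in Mbd4 KO cells, against 9.67 and 9.70 in control cells (-0.19, 95% interval -0.36 to -0.01). In neither of these 2 did the groups overlap, and which of the named genes differed was not tested.

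The 5-symbol cluster read 9.75 and 9.82 in Mbd4 KO cells, against 9.86 and 9.89 in control cells (-0.09). It names Zfp534, Zfp991, Zfp987, Zfp992 and Znf41-ps. The pair of 10-symbol clusters carries one set of names. The first of the pair read 9.11 and 9.11 in Mbd4 KO cells, against 9.16 and 9.26 in control cells (-0.10), and the second read 9.10 and 9.12 in Mbd4 KO cells, against 9.16 and 9.20 in control cells (-0.07). None of these 3 names Zfp979, Zfp980 or Rex2. All 6 shared clusters were thus lower without overlap, as were 19.0% of all clusters on the array, but they name many of the same genes and are not separate observations.

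**Figure D2:**
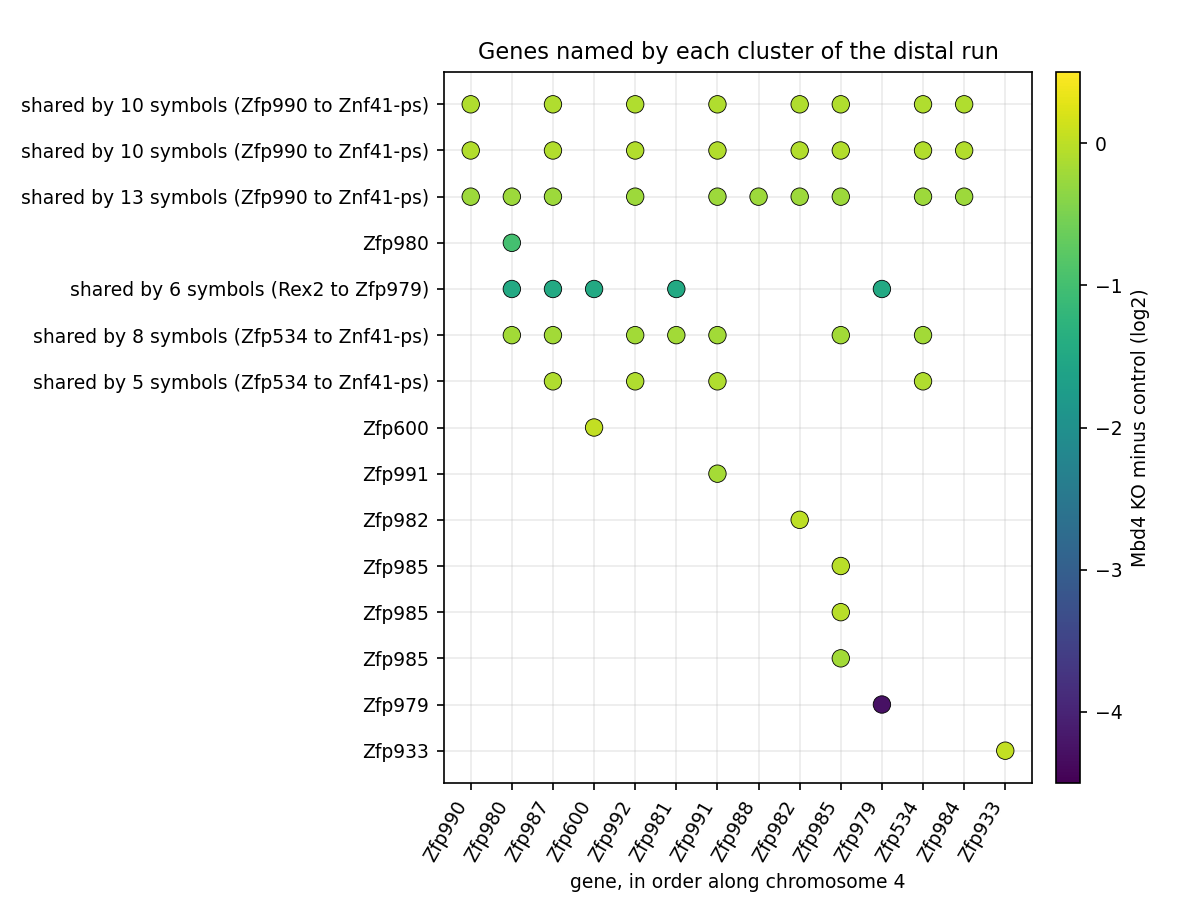
Each row is 1 of the 15 clusters of the distal run and each column 1 of the 14 Zfp genes they name, in gene order. A dot marks a gene the cluster names, and its colour gives the difference between Mbd4 KO and control cells (log2). The own cluster of Zfp979 (-4.28), the 6-symbol cluster (-1.49) and the own cluster of Zfp980 (-0.99) are darker than the other rows, whose differences lie between -0.24 and 0.04.

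For the genes read by shared clusters alone, only the differences of the clusters that name them can be given. Zfp987 is named by 6 clusters with differences of -1.49 to -0.07, and Zfp981 by 2 with differences of -1.49 and -0.19. Zfp992 and Zfp534 are named by 5 clusters each, with differences of -0.24 to -0.07. Zfp990 and Zfp984, with 3 clusters each, had the same range, and Zfp988 was named only by the 13-symbol cluster (-0.24). Any single gene among them could differ more than its cluster, since 1 value stands for several named genes.

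Other clusters name pseudogenes that lie inside the run, nearly all of them together with parent genes elsewhere. The 4 clusters of Gm13238 and Cdv3 differed by -0.02 to 0.06. The 3 of Gm13034 and Smarca5 differed by -0.10 to 0.02, and the 4 of Rps19-ps3, of which 3 also name Rps19 and 2 carry identical values, by -0.01 to 0.16. The 5 nearest clusters with 1 symbol on each side of the run, looked up after its values were seen, differed by -0.21 to 0.47. They include Fv1, a restriction factor against murine leukaemia viruses (0.16), Mfn2, a mitochondrial fusion gene (-0.02), and Tnfrsf8, which encodes the receptor CD30. Tnfrsf8 read 9.24 and 9.19 in Mbd4 KO cells, against 8.73 and 8.76 in control cells, a difference of 0.47 ± 0.067 (SE; limma adjusted p = 0.187 over the whole table and 0.0438 over the clusters with a gene symbol).

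**Figure D3:**
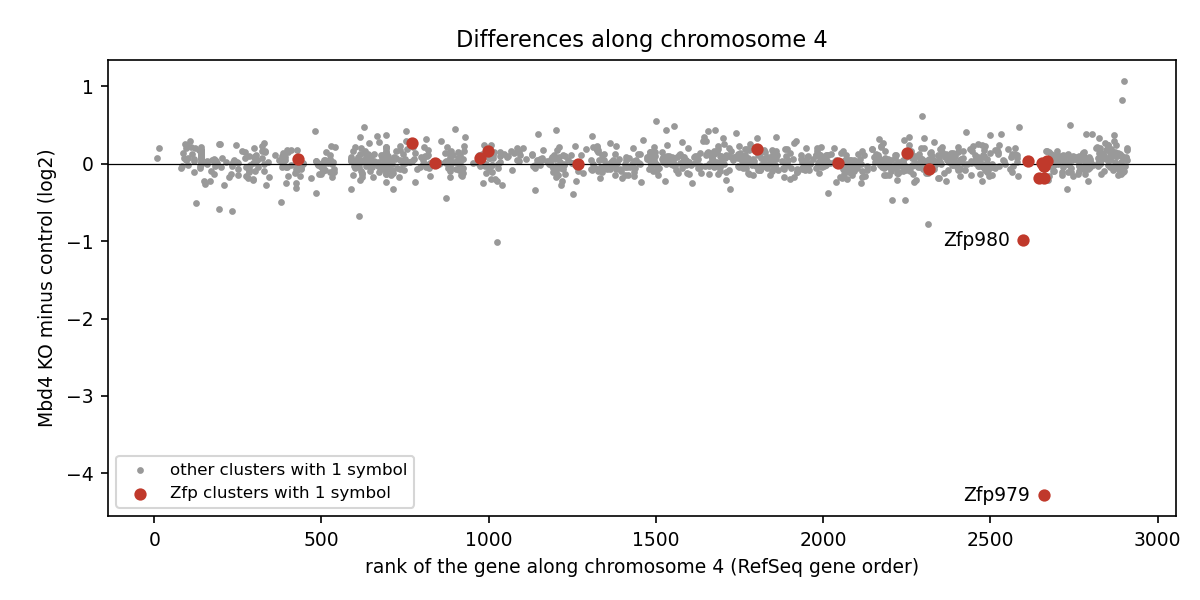
Difference between Mbd4 KO and control cells (log2) for every cluster with 1 gene symbol on chromosome 4, against the rank of its gene along the chromosome; red points are the 19 Zfp clusters with 1 symbol and grey points the other genes. Zfp979 (-4.28) and Zfp980 (-0.99) stand below the other Zfp points of the distal run, which lie between -0.19 and 0.04.

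The 10 Zfp clusters on the rest of the chromosome each name 1 gene and differed by -0.07 to 0.27. Zfp189, a KRAB zinc finger gene, had the largest difference. It read 8.62 and 8.70 in Mbd4 KO cells, against 8.47 and 8.32 in control cells (0.27, 95% interval 0.04 to 0.50). Zfp691 read 10.10 and 10.13 in Mbd4 KO cells, against 9.96 and 9.89 in control cells (0.19, 95% interval 0.01 to 0.37). In both, every Mbd4 KO array was above every control array, as in 8298 of all 35556 clusters. The intervals are not adjusted for the number of clusters. Neither gene was called over the whole table (limma adjusted p = 0.417 for Zfp189 and 0.451 for Zfp691).

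Zfp618, whose human counterpart binds 5-hydroxymethylcytosine together with UHRF2, read 7.001 and 7.08 in Mbd4 KO cells, against 6.76 and 6.99 in control cells (0.17, 95% interval -0.11 to 0.44). Zfp593, a gene linked to ribosome assembly through its yeast relative, read 9.56 and 9.64 in Mbd4 KO cells, against 9.49 and 9.42 in control cells (0.14, 95% interval -0.05 to 0.34). Neither interval excludes 0. Zfp46 read 7.56 and 7.58 in Mbd4 KO cells, against 7.63 and 7.65 in control cells (-0.07, 95% interval -0.25 to 0.10), the lowest of the 10.

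The other 5 lay within 0.08 of 0. Zfp292, first described as a zinc finger activator of the growth hormone gene, read 9.58 and 9.68 in Mbd4 KO cells, against 9.56 and 9.58 in control cells (0.07). Zfp37 differed by 0.08, Zfp462, a heterochromatin-associated gene of pluripotent cells, by 0.01 and Zfp362 by 0.01, and these 3 had overlapping groups. Zfp352, a gene known from the early embryo, read 6.12 and 5.97 in Mbd4 KO cells, against 6.14 and 5.95 in control cells, with overlap and a difference of -0.003 (95% interval -0.28 to 0.27).

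In control cells, brightness is given as a description, since a fall as large as that of Zfp979 needs a bright control value. Over the 25 members the median stood at percentile 54.6 of the clusters with a gene symbol, and it stood at 58.8 over the 382 Zfp clusters not on chromosome 4. Own clusters of the run were dimmer, with a median percentile of 28.9, than the 10 members outside it, at 58.5. Within the run they ranged between percentile 1.3 for Zfp600 and 60.3 for Zfp933, and Zfp979, at 56.7, was the second brightest of the 9. Probes of different clusters differ in response, so these ranks describe brightness on the array and not amounts of RNA.

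Over all 25 members the median difference was -0.03, with 14 below 0 and 11 above, against a median of 0.01 over the whole table. It was -0.10 over the 15 clusters of the run, 0.07 over the 10 outside it and 0.05 over the 382 Zfp clusters on other chromosomes or on none, which ranged between -0.62 and 0.69. Mbd4 KO and control arrays did not overlap in 15 of the 25 members, 10 lower and 5 higher, as in 42.3% of all clusters. At least 2-fold lower were 2 of the 25, the own cluster of Zfp979 and the 6-symbol cluster, as were 0.233% of the whole table, and 0 of the 382 elsewhere.

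**Figure D4:**
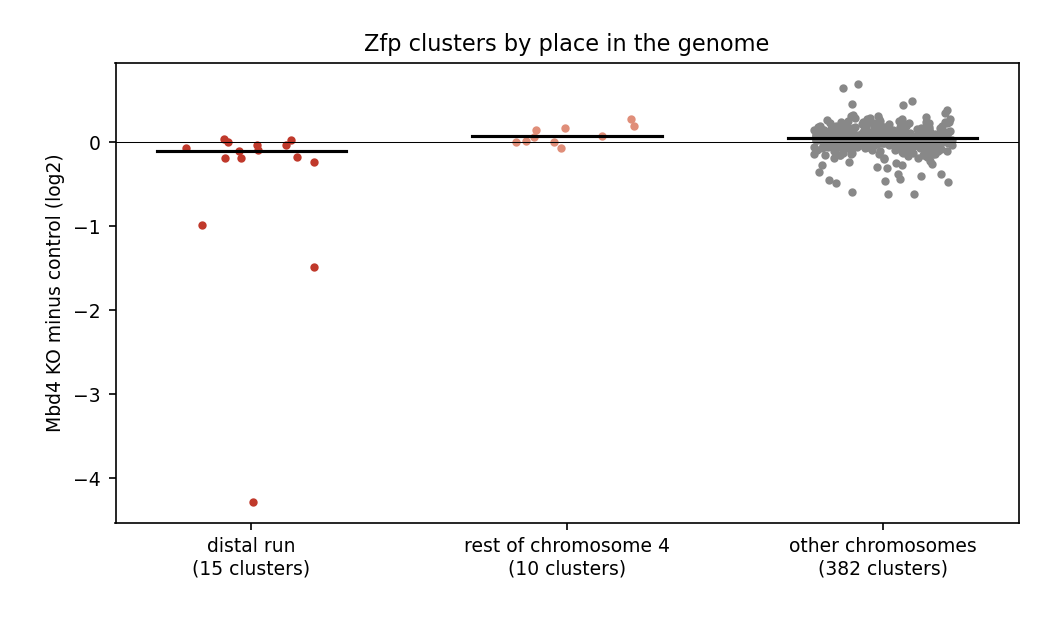
Difference between Mbd4 KO and control cells (log2) for Zfp clusters of the distal run, of the rest of chromosome 4 and of other chromosomes; each point is 1 cluster, bars are medians (-0.10, 0.07 and 0.05) and points are spread sideways only to separate them. The 3 lowest points of the run (-4.28, -1.49 and -0.99) lie below the lowest point of the other chromosomes (-0.62).

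Fitted with limma over the whole table, 1 of 25 members, Zfp979, passed an adjusted p of 0.05, as lower, where 0.0478% of all clusters were called lower and 0.0619% in either direction. Fitted over the clusters with a gene symbol, 3 of 25 passed as lower, Zfp979, the 6-symbol cluster and Zfp980, where 0.833% were called lower and 1.32% in either direction. Nothing is read from these counts, since the list was chosen on this contrast. The prior degrees of freedom were 2.37 in the fit over the whole table and 3.75 in the fit over the clusters with a symbol, and the median SE was 0.0865 and 0.0764. An exact permutation test of a single cluster with 2 arrays a group can give no p below 0.333.

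Genes of the machinery that KRAB zinc finger proteins work through were measured for 26 of 28 listed, all but Mphosph8 and Suv39h1. The list also counts Zfp57 and Zfp809, which are KRAB zinc finger genes themselves. None of the 34 clusters of the listed genes passed limma over the whole table, where 0.0619% of all clusters did. None passed over the clusters with a symbol, where 1.32% did. Simulated log2 changes of 0.5 were recovered in only 0% and 30% by these fits, so the absence of calls does not show that these genes were unchanged. An unadjusted p under 0.05 was found for 5 of the 34 clusters, each of another gene, and for 10.7% of all clusters. Taking the brightest cluster of each gene, the median difference was 0.01, with 13 above 0 and 13 below. Trim28, the corepressor itself, read 11.66 and 11.65 in Mbd4 KO cells, against 11.62 and 11.62 in control cells (0.03), and Setdb1, the histone H3 methyltransferase gene, differed by -0.06. The largest differences were those of Morc3, a chromatin ATPase gene, and Chd3, a chromatin remodeller gene. Morc3 read 9.49 and 9.57 in Mbd4 KO cells, against 9.87 and 9.88 in control cells (-0.34 ± 0.071, SE; limma adjusted p = 0.268). Chd3 read 9.09 and 9.06 in Mbd4 KO cells, against 9.35 and 9.40 in control cells (-0.30 ± 0.067, SE; limma adjusted p = 0.288).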

How the data were processed

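RNA of 4 samples was measured on Affymetrix whole-transcript arrays. The deposited values are log2 levels, 1 per transcript cluster and array, made by the authors with RMA (background correction, quantile normalization and probe summary), per the submitters' processing notes. RMA's version was not given here. RMA gives 1 value to a cluster, so probes shared by near copies cannot be separated.

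Symbols came from GEO's platform annotation, some of it possibly outdated, and chromosomes and gene order from RefSeq GRCm38.p6. Of 35556 clusters, 21789 had 1 symbol, 1621 several and 12146 none in the table. Among the members 1 gene ID (Zfp988) was matched by symbol, and members chosen by current RefSeq symbol were the same 25. The array's build is not given, so cluster coordinates are not printed.

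Mbd4 KO was set against control in R 4.3.3 by limma 3.58.1 (eBayes after lmFit, two-sided, Benjamini-Hochberg over the whole table, threshold 0.05), with 2 residual and 2.37 prior degrees of freedom; SE and 95% intervals are moderated. On simulated data with 200 of 35556 clusters changed, log2 changes of 0.5, 1, 2 and 4 were recovered in 0%, 50%, 90% and 100%; over the 23410 clusters with a symbol in 30%, 94%, 100% and 100%. No array copied another (at most 39 identical values in a pair).

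The members and gene lists were chosen with earlier results of these data known. The text gives 4 values for members called, in the run of Zfp979, or among the 3 largest rises or falls of the rest, then the genes next to Zfp979, called corepressor genes and the 2 largest differences among them. Trim28, Setdb1, the genes at the sides of the run and some further members are named outside that rule. No protein sequence was used here. Promoters were aligned globally with free end gaps (Biopython 1.88). Figures used matplotlib 3.10.9. Alternatives were the replicate block, each array left out, trend or robust priors, removal of the dimmest 30%, quantile and cyclic loess normalization, and fits over clusters with exactly 1 or at least 1 symbol.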

Additional observations from a re-analysis of the deposited data

How the results depend on the processing

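The count of members called changed with the clusters in the fit and with the prior: 1 over the whole table, 2 with an intensity trend, 2 of the 19 with exactly 1 symbol and 3 with at least 1 symbol; over all clusters these settings called 22, 194, 302 and 310. Blocking on the replicate number gave 0, and leaving out any 1 array gave 0 to 0, with 0 calls over the whole table too. In the labels, same-numbered arrays shared only a number. The correlation of their deviations was 0.069, which cannot show whether they were paired. The difference of Zfp979 was -4.28 under the block and -4.37 to -4.20 without 1 array, no longer called (limma adjusted p = 0.133 and 0.248 to 0.294). The 6-symbol cluster, at -1.49, was called with a trend, without the dimmest 30% and with at least 1 symbol. Zfp980, at -0.99, was called with 1 symbol exactly or at least. Removing the dimmest 30% left 20 members, without Zfp979, so it did not test that gene.

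Signs turned, uncalled, for Zfp462 with quantile (-0.0060) and cyclic loess normalization (-0.0164) and for Zfp982 with cyclic loess (-0.0052). Without 1 array, differences spanned -0.0964 to 0.0903 for Zfp352, -0.0412 to 0.0541 for Zfp362, -0.0573 to 0.1208 for Zfp933, -0.1102 to 0.1267 for Zfp462, -0.1453 to 0.2266 for Zfp600, -0.4565 to 0.0923 for Zfp991, -0.0837 to 0.0956 for Zfp982, and -0.0863 to 0.0238 and -0.1324 to 0.0716 for the brighter clusters of Zfp985. The median over members stayed between -0.063 and 0.007, and 0 corepressor genes were called under any of these settings. The median brightness percentile was 53.8 or 54.5 with 1 control array. The cause of these changes was not tested. Signal over background could not be assessed.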
